A study of Mus musculus with 6 samples.

Results

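The costimulatory receptors of activated T cells were examined by RNA-seq of mouse T cells after co-culture with ID8, an ovarian cancer line of the mouse. The 8 genes were chosen by name from the 54532 genes of the expression table: Cd28, Icos, Cd27, Tnfrsf4 (OX40), Tnfrsf9 (4-1BB), Tnfrsf18 (GITR), Cd40lg (CD40 ligand) and Cd226 (DNAM-1). Each name matched 1 row. The T cells were isolated from spleens of C57BL/6 mice aged 6 to 8 weeks with a pan T-cell kit, cultured in 10 ng/mL IL-2, and activated in both groups on beads bearing antibodies to CD3 and CD28 for 72 h before the co-culture. In the cisplatin group (3 libraries) the ID8 cells had been pretreated with 40 µM cisplatin before co-culture. In the control group (3 libraries, named WT in the labels) they had received PBS. The labels do not say whether the libraries of a group came from separate mice or cultures, so p-values measure the spread between these libraries, which may be technical.

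A T cell needs a signal from its antigen receptor and a second, costimulatory signal for full activation. CD28 is present on resting T cells and binds CD80 and CD86, and ICOS is a related receptor that appears after activation and binds ICOS ligand. CD27, OX40, 4-1BB and GITR belong to the TNF receptor superfamily, signal through TRAF adaptors to NF-κB, and support survival and expansion. CD40 ligand is a TNF family member on activated CD4+ T cells that engages CD40 on antigen-presenting cells. CD226 binds CD155 (encoded by Pvr) and CD112 (encoded by Nectin2). It competes for them with TIGIT, and for CD155 with CD96. OX40, GITR and ICOS are also abundant on regulatory T cells.

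With cisplatin-pretreated ID8 cells, Cd27, Icos, Cd28, Cd226 and Tnfrsf4 were higher on the deposited FPKM, by log2 fold changes of 0.73 to 0.38, and Tnfrsf9 was lower by 0.20 on the log2 scale, a call that was lost after quantile normalization (adjusted p = 0.096) and with voom (adjusted p = 0.088), both of limma. Tnfrsf18 and Cd40lg did not pass the test. The genes that mark T cells in general were higher by about as much as the first 5 receptors. Measured against the mean of those genes within each library, Cd27 was higher, Tnfrsf9 and Tnfrsf18 were lower, and the other 5 overlapped between the groups. The rise of Cd27 on that measure lay within the spread of those genes. FPKM divides the reads of a gene by its length and by a library factor, so levels of different genes can be set side by side. A gene passed the test at a Benjamini-Hochberg adjusted p under 0.05 from limma on log2(FPKM + 0.1), and was called when its fold was also at least 2. The added 0.1 makes the fold changes of low genes too small. The 95% intervals below and standard errors (SE) are those of limma for the log2 fold change.

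The set of sequences upstream of RefSeq starts (GRCm38.p6) that was at hand held 4 of the 8 receptors, all of the TNF receptor superfamily. These 4 genes did not move alike: Cd27 rose most, Tnfrsf9 was lower on the deposited FPKM, and Tnfrsf4 and Tnfrsf18 differed although they lie side by side. A link between the stretches and these changes was not tested. Each run is written 5′ to 3′ on the strand of the gene and ends at the base before the RefSeq start, except that of Tnfrsf18, which is shortened to 92 bases so that it holds no annotated exon of the gene. They lie at chr6:125237028-125237277 on the minus strand (Cd27), and at chr4:150919905-150920154 (Tnfrsf9), chr4:156013445-156013694 (Tnfrsf4) and chr4:156026072-156026163 (Tnfrsf18) on the plus strand. For Tnfrsf9 the more upstream of its 2 RefSeq starts was used. It lies inside the gene as the table spans it, past the first annotated exon, so the stretch is upstream of that start and not of the whole gene. Capitals mark matches on either strand to an AP-1 motif (TGANTCA), a κB motif (GGG, any 5 bases, CC) and the NFAT core (GGAAA).
Cd27: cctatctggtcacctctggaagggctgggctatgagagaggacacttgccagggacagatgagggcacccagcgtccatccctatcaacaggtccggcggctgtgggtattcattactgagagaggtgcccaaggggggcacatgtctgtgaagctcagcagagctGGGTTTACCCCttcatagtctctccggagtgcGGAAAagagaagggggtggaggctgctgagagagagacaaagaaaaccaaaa
Tnfrsf9: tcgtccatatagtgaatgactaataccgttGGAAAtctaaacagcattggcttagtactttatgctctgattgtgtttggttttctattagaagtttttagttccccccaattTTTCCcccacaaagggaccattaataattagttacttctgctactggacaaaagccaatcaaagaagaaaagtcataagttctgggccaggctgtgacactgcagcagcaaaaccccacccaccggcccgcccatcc
Tnfrsf4: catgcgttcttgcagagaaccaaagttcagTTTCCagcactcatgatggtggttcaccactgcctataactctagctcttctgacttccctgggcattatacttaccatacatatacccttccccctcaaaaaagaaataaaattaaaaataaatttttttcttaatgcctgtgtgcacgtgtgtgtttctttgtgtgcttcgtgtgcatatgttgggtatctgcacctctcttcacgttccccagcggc
Tnfrsf18: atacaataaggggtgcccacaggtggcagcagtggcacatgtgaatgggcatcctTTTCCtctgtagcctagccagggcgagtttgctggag

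The κB letters occurred in the Cd27 stretch, as 2 overlapping matches that begin 84 and 83 bases before the start, and in none of the other 3 stretches. The NFAT core occurred once each in the Cd27, Tnfrsf4 and Tnfrsf18 stretches and at 2 places in that of Tnfrsf9. The AP-1 letters occurred in none of the 4. Of 32851 RefSeq upstream windows of 250 bases, 45.8% held the κB motif, 55.6% the NFAT core and 6.75% the AP-1 motif. The Tnfrsf18 stretch has only 92 bases, so its lack of a match is not comparable with the others or with these shares. A match describes the letters only.

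The libraries held 30606569 to 32169496 reads on genes, rebuilt from FPKM and gene length. The library factor of the deposited FPKM was 1.03 to 1.05 times these reads with cisplatin and 0.976 to 0.982 times in control. Against scaling by reads on genes, the deposited FPKM thus sets every cisplatin value lower relative to control. Markers of other cells changed between the groups. The summed FPKM of 20 T-cell identity genes was 1608 to 1726 in control and 2576 to 2643 with cisplatin, and of these genes 18 passed as higher and 1 (Themis) as lower, with a median log2 fold change of 0.60. Of the 12 ID8 markers, 10 were tested and 9 were called lower (median -2.32), and their summed FPKM was 1436 to 1508 in the control and 199.9 to 207 in the cisplatin libraries. All 10 B-cell markers were higher (median 0.60, summed FPKM 1710 to 1798 in control, 3652 to 3724 with cisplatin), as were 7 of 9 tested myeloid markers (65.1 to 69.9 and 127 to 145). Of the other tested myeloid markers, Cd14 passed as lower (log2 fold change -0.47) and Cd68 did not pass. Over all tested genes, 27.5% passed as higher, 29.0% passed as lower and 12.8% were called lower. No NK-cell marker passed, and their sums were 8.36 to 8.93 and 9.71 to 11.6. The part of these cells in the receptor values, and in those of the signalling and activation genes below, was not tested. In bulk RNA, more cells of a type and more RNA per cell cannot be told apart. Over the 15874 tested genes the log2 fold changes had a median of 0.03 on the deposited FPKM and 0.16 after quantile normalization. With reads on genes as the library size (voom) the median was 0.10, over another set of 18541 genes with at least 10 reads in at least 3 libraries. Over the 15874 genes it was -0.48 after subtracting the mean log2 level of the T-cell identity genes from each library (T-cell centring). That centring assumes that these genes did not change.

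CD28 itself is the receptor that the activating beads engaged in both groups. Cd28 (ENSMUSG00000026012) spans 60716800 to 60773359 of chromosome 1 of GRCm38 (mm10). It had 38.1, 39.0 and 40.2 FPKM in the cisplatin libraries 1 to 3 and 27.4, 26.4 and 27.6 FPKM in the control libraries. Every cisplatin library was above every control library. The means were 39.1 ± 1.10 and 27.1 ± 0.640 FPKM (SD, n = 3 each), giving a log2 fold change of 0.53 (SE 0.04, 95% interval 0.44 to 0.61, limma adjusted p = 2.7e-05), which shrank to 0.01 after T-cell centring (adjusted p = 0.76).

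Icos lies on the same chromosome from 60977927 to 61000320, 205 kb beyond Cd28, with the inhibitory receptor gene Ctla4 between them. Its FPKM was 20.5, 19.6 and 20.1 with cisplatin and 13.7, 13.6 and 14.2 in control, again without overlap. The means of 20.04 ± 0.460 and 13.8 ± 0.351 FPKM (SD, n = 3 each) gave a log2 fold change of 0.53 (SE 0.04, limma adjusted p = 3.5e-05), and 0.02 after T-cell centring (adjusted p = 0.69). The 2 related receptors kept their proportion. Icos was 0.513 ± 0.022 of Cd28 with cisplatin and 0.509 ± 0.0094 in control (ratio of FPKM within a library, SD, n = 3 each), and these ratios overlapped.

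**Figure D1:**
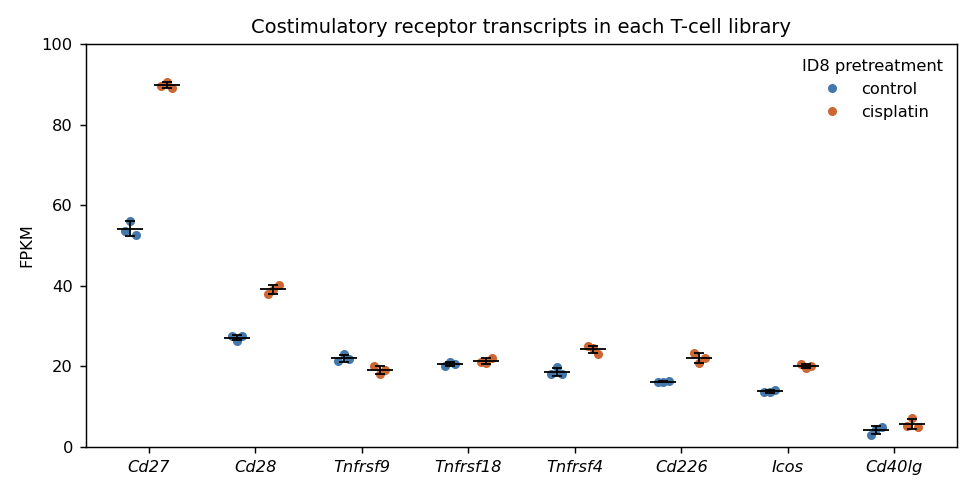
FPKM of the 8 receptors (y axis) in each of the 3 control and 3 cisplatin libraries (points), with the mean and SD of each group (black bars). Cd27 is the highest in both groups (52.6 to 56.1 FPKM in control, 89.2 to 90.6 with cisplatin), Tnfrsf9 alone is lower in all cisplatin libraries, and Tnfrsf18 and Cd40lg overlap.

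Among the TNF receptor genes, Cd27 had the highest level and the largest rise. CD27 is carried by naive and memory T cells and by some B cells, and binds CD70. Cd27 (chromosome 6, 125232622 to 125237010) had 89.5, 90.6 and 89.2 FPKM in the cisplatin libraries and 53.7, 56.1 and 52.6 FPKM in control. The groups were far apart. The means were 89.7 ± 0.732 and 54.1 ± 1.83 FPKM (SD, n = 3 each), giving a log2 fold change of 0.73 (SE 0.03, 95% interval 0.65 to 0.81, limma adjusted p = 4.4e-06). It was the one receptor that still passed as higher after T-cell centring (log2 fold change 0.22, limma adjusted p = 0.0027). Of the 20 T-cell identity genes themselves, 8 passed as higher (40%) and 5 as lower (25%) after that centring. Cd27 lay within their spread, with Trac at 0.34, Cd247 at 0.26 and Trbc2 at 0.25. The Cd27 gene lies within Vamp1 on the other strand, with 0 shared exonic bases.

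OX40 is induced by activation and sustains the response of effector T cells. Tnfrsf4 (chromosome 4, 156013843 to 156016612) had 25.0, 24.5 and 23.1 FPKM with cisplatin and 18.1, 19.8 and 18.0 FPKM in control. All cisplatin libraries were above all control libraries. The log2 fold change was 0.38 (SE 0.05, limma adjusted p = 9.4e-04), and -0.13 after T-cell centring, which did not pass (adjusted p = 0.086).

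GITR, the product of the neighbouring gene, is likewise induced by activation. Tnfrsf18 (156026164 to 156028895) begins 9.55 kb beyond the end of Tnfrsf4. Its FPKM was 21.005, 20.8 and 22.05 with cisplatin and 20.1, 21.2 and 20.5 in control, and the groups overlapped. The log2 fold change of 0.05 did not pass (SE 0.04, 95% interval -0.05 to 0.14, limma adjusted p = 0.33). It passed as higher after quantile normalization (0.14, adjusted p = 0.018) and as lower after T-cell centring (-0.46, adjusted p = 8.2e-05). The antisense transcript Gm16008 covers 414 of its 1524 exonic bases and fell from 3.26 to 1.18 FPKM. Counting by strand is not stated in the sources used here, so the Tnfrsf18 values are uncertain. Within libraries, Tnfrsf18 stood at 1.11 ± 0.035 times Tnfrsf4 in control and at 0.881 ± 0.063 times with cisplatin (SD, n = 3 each), so the order of the neighbours turned without overlap.

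4-1BB is a short-lived activation receptor of CD8+ T cells in particular, and its gene was the only member that passed as lower on the deposited FPKM. Tnfrsf9 (chromosome 4, 150914562 to 150946102) had 19.97, 18.1 and 19.2 FPKM with cisplatin and 21.2, 22.9 and 21.8 FPKM in control. No cisplatin library reached the lowest control library. The means were 19.1 ± 0.919 and 21.99 ± 0.881 FPKM (SD, n = 3 each), giving a log2 fold change of -0.20 (SE 0.05, 95% interval -0.32 to -0.08, limma adjusted p = 0.012). The fall did not pass after quantile normalization (-0.11, adjusted p = 0.096) or with voom on rebuilt reads (-0.12, adjusted p = 0.088), and was -0.71 after T-cell centring (adjusted p = 4.0e-05). Camta1, on the other strand, shares 0 exonic bases with it.

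CD40 ligand gives helper signals to B cells, dendritic cells and macrophages. Cd40lg (chromosome X, 57212143 to 57224042) was the lowest member and the most variable. It had 5.09, 7.19 and 4.86 FPKM with cisplatin and 3.06, 4.56 and 4.93 FPKM in control, on 115 to 298 rebuilt reads. The groups overlapped, and the log2 fold change of 0.45 did not pass (SE 0.22, 95% interval -0.08 to 0.97, limma adjusted p = 0.13). It was 0.24 without control library 1 and 0.27 without cisplatin library 2. With all libraries it passed as higher after quantile normalization (0.62, adjusted p = 0.044) and with voom (0.54, adjusted p = 0.022), and was -0.06 after T-cell centring (adjusted p = 0.80). Relative to Cd4, which marks helper T cells, it was at 0.106 ± 0.020 with cisplatin and 0.103 ± 0.024 in control (ratio of FPKM, SD, n = 3 each).

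CD226 is an adhesion and activating receptor of CD8+ T cells and NK cells. Cd226 had 23.3, 20.8 and 22.03 FPKM with cisplatin and 16.0, 16.2 and 16.4 FPKM in control, with no overlap. The log2 fold change was 0.44 (SE 0.05, 95% interval 0.33 to 0.56, limma adjusted p = 2.6e-04), and -0.07 after T-cell centring, which did not pass (adjusted p = 0.35). Its length in the table, 2357 bases, is shorter than the 4891 exonic bases of GENCODE M21, so its place among the levels depends on the gene model. For the other 7 members the coordinates and exonic lengths were the same in both.

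In all, 5 of the 8 receptors passed as higher (62.5%), where 27.5% of all tested genes did, and 1 passed as lower (12.5%), where 29.0% did (56.5% in either direction). None was called at a fold of 2, where 4.11% of genes were called higher and 12.8% lower. For 6 of the 8 (75.0%) the groups did not overlap in either direction, near the 64.2% of all tested genes. By direction, cisplatin was above for 5 (62.5%, background 31.9%) and control for 1 (12.5%, background 32.3%). The median log2 fold change of the 8 was 0.45, beside 0.03 over all tested genes and 0.60 over the T-cell identity genes. After T-cell centring, 1 receptor passed as higher (background 5.68%, T-cell identity genes 40%) and 2 as lower (background 61.8%, T-cell identity genes 25%). The centred median of the 8 was -0.07 beside -0.48 over all genes. Relative to the median of all genes, Cd27 was at 0.70, Icos at 0.51, Cd28 at 0.50, Cd40lg and Cd226 at 0.42, Tnfrsf4 at 0.35, Tnfrsf18 at 0.02 and Tnfrsf9 at -0.23 on the deposited FPKM.

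**Figure D2:**
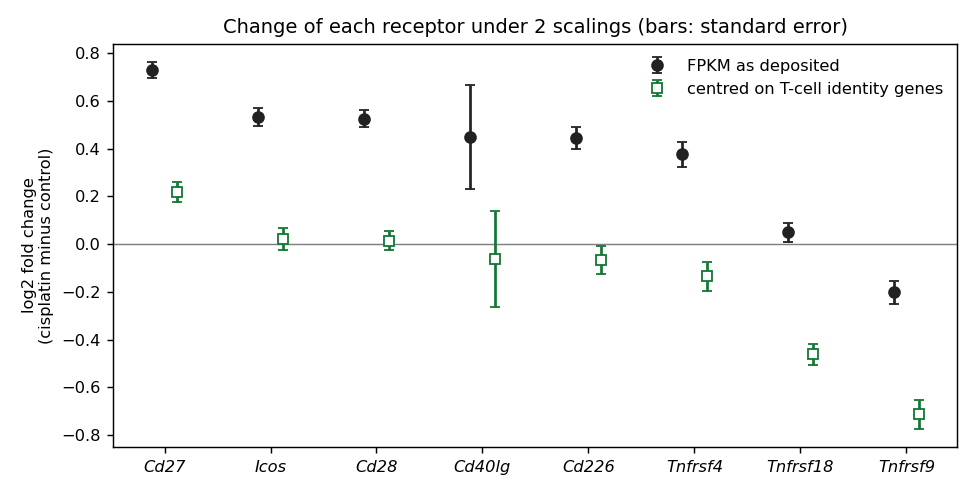
Log2 fold change (cisplatin minus control, y axis) of each receptor on the FPKM as deposited (filled) and after T-cell centring (open), with standard errors as bars. Cd27 stays above 0 under both (0.73 and 0.22), Cd28 and Icos drop to 0.01 and 0.02, and Tnfrsf9 is below 0 under both (-0.20 and -0.71).

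A difference taken inside a library does not depend on the scaling between libraries. The group differences below equal the T-cell-centred log2 fold changes, so they are the same result under another test and not a second one. Relative to the mean log2 level of the T-cell identity genes, Cd27 was at 0.53, 0.50 and 0.49 in the cisplatin libraries and at 0.31, 0.34 and 0.21 in control. Tnfrsf9 was at -1.63, -1.82 and -1.72 with cisplatin and at -1.02, -0.95 and -1.05 in control. Tnfrsf18 was at -1.55, -1.62 and -1.52 against -1.11, -1.06 and -1.14. No cisplatin value of these 3 lay within the control range (exact permutation test, two-sided, p = 0.1 each, the smallest p that 3 against 3 libraries allow, and 0.27 after Benjamini-Hochberg adjustment over the 8). For Cd28, Icos, Tnfrsf4, Cd226 and Cd40lg the groups overlapped, with differences of 0.01, 0.02, -0.13, -0.07 and -0.06.

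The order of the levels was thus not the same in the 2 groups. In control it ran from Cd27 (54.1 FPKM) through Cd28 (27.1), Tnfrsf9 (21.99), Tnfrsf18 (20.6), Tnfrsf4 (18.6), Cd226 (16.2) and Icos (13.8) to Cd40lg (4.18), and no neighbours in that order overlapped. With cisplatin it ran Cd27 (89.7 FPKM), Cd28 (39.1), Tnfrsf4 (24.2), Cd226 (22.1), Tnfrsf18 (21.3), Icos (20.04), Tnfrsf9 (19.1) and Cd40lg (5.72). There the ranges of Tnfrsf4 and Cd226, of Cd226 and Tnfrsf18, and of Icos and Tnfrsf9 overlapped, so those neighbours are not told apart. Tnfrsf9 went from the third place to the seventh. Its share of the summed FPKM of the 8 fell from 12.4% ± 0.23 to 7.92% ± 0.35 (SD, n = 3 each), and that of Cd27 went from 30.6% ± 0.66 to 37.2% ± 0.39. The summed FPKM itself was 173 to 181 in control and 241 to 242 with cisplatin.

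Ratios between receptors, chosen after their values were seen and given as description, show the same reordering. Tnfrsf9 was 0.406 ± 0.010 of Cd27 in control and 0.213 ± 0.012 with cisplatin (SD, n = 3 each), 0.524 times as high. Against Tnfrsf4 it went from 1.18 ± 0.027 to 0.790 ± 0.045. Against Il2ra, which encodes the IL-2 receptor α chain and is itself induced by activation, it went from 1.43 ± 0.070 to 0.809 ± 0.037. In each of the 3 the groups did not overlap.

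**Figure D3:**
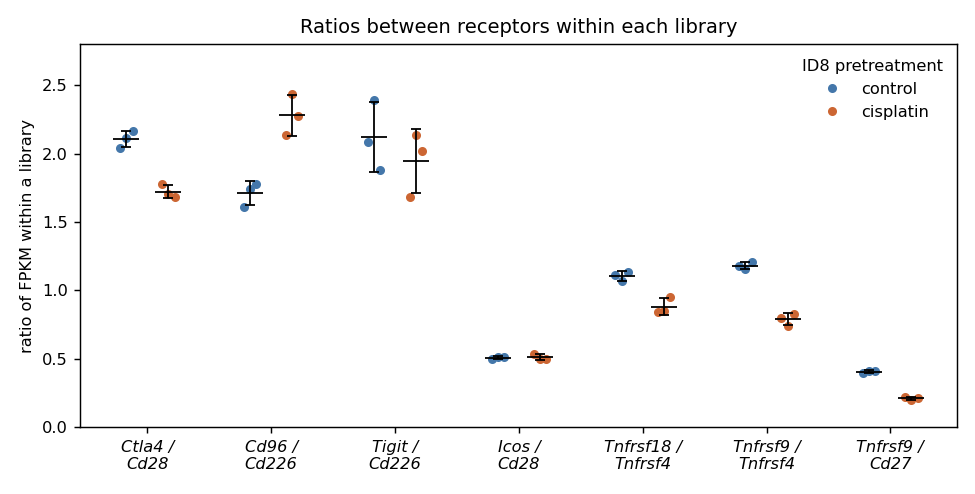
Ratio of the FPKM of 2 receptors within a library (y axis) for 7 pairs, with the 3 libraries of each group as points and the mean and SD as black bars. The ratio of Icos to Cd28 overlaps between groups near 0.51, while those of Ctla4 to Cd28 and of Tnfrsf9 to Cd27 are lower and that of Cd96 to Cd226 is higher in all cisplatin libraries.

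The inhibitory receptors that share a ligand with CD28 or CD226 were measured beside them. CTLA-4 outcompetes CD28 for CD80 and CD86. Ctla4 had 67.5, 66.6 and 67.8 FPKM with cisplatin and 56.0, 55.8 and 59.6 FPKM in control (log2 fold change 0.24, limma adjusted p = 0.0012; -0.27 after T-cell centring, adjusted p = 3.7e-04). Its ratio to Cd28 was 1.72 ± 0.047 with cisplatin and 2.11 ± 0.061 in control, without overlap. Cd96 had 49.7, 50.7 and 50.1 FPKM against 25.8, 28.1 and 29.1 (log2 fold change 0.86, limma adjusted p = 1.2e-05; 0.35 after T-cell centring, adjusted p = 2.1e-04). Its ratio to Cd226 was 2.28 ± 0.150 with cisplatin and 1.71 ± 0.088 in control. Tigit had 39.3, 44.5 and 44.4 FPKM against 33.4, 38.7 and 30.8 (log2 fold change 0.32, limma adjusted p = 0.023; -0.19 after T-cell centring, adjusted p = 0.11), and its ratio to Cd226 overlapped between groups (1.95 ± 0.234 and 2.12 ± 0.257). All 3 passed as higher on the deposited FPKM. Relative to their costimulatory counterparts, then, Ctla4 was lower, Cd96 higher, and Tigit not separated.

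The ligands moved in both directions. Of 10, 8 were tested: 4 passed as higher (50%, background 27.5%) and 3 as lower (37.5%, background 29.0%). Icosl did not pass (log2 fold change -0.21, limma adjusted p = 0.32, and -0.72 after T-cell centring, adjusted p = 0.0076). Both ligands of CD226 were called lower. Nectin2 had 7.21, 7.85 and 7.44 FPKM with cisplatin and 47.7, 51.6 and 45.4 FPKM in control, a log2 fold change of -2.67 (SE 0.06, limma adjusted p = 2.2e-07). Pvr had 5.28, 5.23 and 5.05 FPKM against 11.2, 11.4 and 12.5 (log2 fold change -1.16, limma adjusted p = 6.1e-06). Tnfsf9, the 4-1BB ligand, had 1.92, 1.85 and 2.15 FPKM against 4.70, 4.21 and 2.96 (log2 fold change -0.95, limma adjusted p = 0.0037). Receptor and ligand of this pair were thus both lower on the deposited FPKM, but the receptor did not pass after quantile normalization or with voom. These 3 ligands were lower after T-cell centring too. The ID8 markers fell in the same libraries, and their part in these 3 values was not tested.

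The other 4 tested ligands that passed were higher on the deposited FPKM. Cd40, the partner of CD40 ligand, was called higher, with 2.27, 2.95 and 2.19 FPKM against 1.01, 1.31 and 0.966 (log2 fold change 1.10, limma adjusted p = 0.0018; 0.59 after T-cell centring, adjusted p = 0.020). Cd80 rose by a log2 fold change of 0.76, Tnfsf4 (the OX40 ligand) by 0.86 and Cd86 by 0.37 (limma adjusted p = 6.0e-04, 0.0067 and 0.0078), and none of the 3 passed after T-cell centring (0.25, 0.35 and -0.14). Cd70 and Tnfsf18, the ligands of CD27 and GITR, had means over the 6 libraries under 0.5 FPKM and were not tested. Cd70 had 0.330, 0.573 and 0.586 FPKM with cisplatin and 0, 0.0792 and 0.0387 FPKM in control, without overlap, on 0 to 16 rebuilt reads a library. Tnfsf18 had 0.0748, 0.175 and 0.358 FPKM against 0.0806, 0.145 and 0.0315, and the groups overlapped. The B-cell markers and most tested myeloid markers rose in the same libraries, and their part in these values was not tested.

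**Figure D4:**
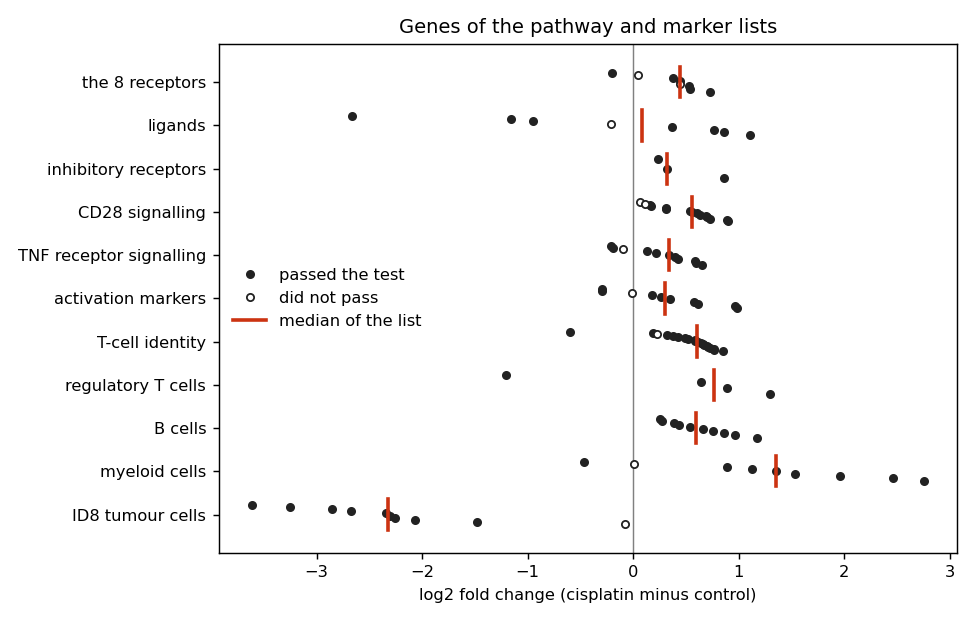
Log2 fold change (cisplatin minus control, x axis) of every tested gene of 11 lists (rows), filled where it passed the test, with the median of the list as a red line. The receptors have a median of 0.45, the ligands are spread from -2.67 to 1.10, and the ID8 tumour markers lie lowest (median -2.32).

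Downstream of CD28 and ICOS, 13 of 15 signalling genes passed as higher (86.7%, background 27.5%) and 0 as lower (background 29.0%), with a median log2 fold change of 0.56. After T-cell centring 5 passed as higher (33.3%, background 5.68%) and 6 as lower (40%, background 61.8%), with a median of 0.05. Vav1 (log2 fold change 0.90), which relays the antigen receptor and CD28 signals, and Pik3cd (0.68), the leukocyte PI3-kinase subunit, were among the 5 that passed under both scalings (0.39 and 0.17 after centring). Pik3ca (0.11) and Bcl10 (0.06) did not pass, and were -0.40 and -0.45 after centring.

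Of the 11 genes downstream of the TNF receptors, 8 passed as higher (72.7%, background 27.5%) and 2 as lower (18.2%, background 29.0%), with a median of 0.34. After T-cell centring 1 passed as higher (9.09%, background 5.68%) and 7 as lower (63.6%, background 61.8%), both near the background. Relb, a subunit of the alternative NF-κB pathway, was higher under both scalings (log2 fold changes 0.65 and 0.14, limma adjusted p = 2.4e-05 and 0.047). Traf2, which binds the tails of these receptors, and Map3k14, the NF-κB-inducing kinase that it restrains, were lower under both (-0.19 and -0.21 as deposited, -0.70 and -0.72 after centring), and neither passed after quantile normalization (-0.09 and -0.10). Traf1, an adaptor of OX40 and 4-1BB signalling, was at 0.60 on the log2 scale and at 0.09 after centring, which did not pass. Siva1, which binds the CD27 tail, did not pass on the deposited FPKM (-0.10).

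Other activation markers did not follow 1 direction. Of 10, 7 passed as higher (70%, background 27.5%) and 2 as lower (20%, background 29.0%) on the deposited FPKM, with a median log2 fold change of 0.31. After T-cell centring 2 passed as higher (20%, background 5.68%) and 5 as lower (50%, background 61.8%). Irf4 (0.98) and Batf (0.97), transcription factors induced by antigen receptor signals, were higher under both scalings (0.47 and 0.46 after centring). Cd44 (-0.30), an adhesion receptor of activated cells, and Tfrc (-0.30), the transferrin receptor of proliferating cells, were lower on the deposited FPKM, as Tnfrsf9 was. They were -0.81 each after centring. Il2ra was at 0.61 on the log2 scale, and at 0.10 after centring (limma adjusted p = 0.068). The ID8, B-cell and myeloid markers changed in the same libraries, and their part in these values was not tested.

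Markers of T-cell subsets stood beside these values. Cd4 rose by a log2 fold change of 0.41, Cd8a by 0.43 and Cd8b1 by 0.39 on the deposited FPKM (-0.10, -0.08 and -0.12 after T-cell centring). Zbtb7b, the transcription factor of the CD4 lineage, was lower (log2 fold change -0.31, limma adjusted p = 0.0034; -0.82 after T-cell centring). Foxp3, the defining factor of regulatory T cells, had 6.57, 6.51 and 6.79 FPKM with cisplatin and 2.86, 2.39 and 2.69 FPKM in control, a log2 fold change of 1.30 (limma adjusted p = 1.8e-05) that was 0.79 after centring (adjusted p = 2.0e-04). Of the 4 regulatory T-cell markers 3 were higher, Nrp1 was lower (log2 fold change -1.21), and their summed FPKM was 17.7 to 18.9 in control and 27.6 to 28.4 with cisplatin. Their part in the values of Icos, Tnfrsf4 and Tnfrsf18 was not tested.

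The genes most like 2 of the receptors over the 6 libraries were found among 7658 protein-coding genes, by the root mean square difference of centred log2 levels. For Cd27, which rose most, these were Itgb7 (0.021), Agap2 (0.021) and Txndc5 (0.022). Itgb7, an integrin chain of gut-homing lymphocytes, had 242 FPKM with cisplatin and 145 FPKM in control. For Tnfrsf9, which had the most negative change, they were Crot (0.022), Tshz1 (0.022) and Acadm (0.023). Acadm, a mitochondrial fatty acid oxidation enzyme, had 13.1 and 15.1 FPKM. These 6 points fall into 2 groups.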

How the data were processed

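The members and gene lists were chosen with earlier results of these data known. The authors deposited FPKM per gene for 6 libraries of poly(A)-selected RNA. According to the paper's methods, reads were cleaned, aligned and counted per known gene with LifeScope, and tested with DESeq2 on counts. The submitters' processing notes instead name fastp, HISAT2 2.0.5, featureCounts 1.5.0-p3 and mm10, and the 2 accounts were not reconciled. Counting by strand is not given in the sources used here. Groups and replicate numbers came from the sample titles. No column was left unmapped.

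Here log2(FPKM + 0.1) was tested with limma 3.58.1 (R 4.3.3; lmFit, eBayes with trend) for the 15874 genes averaging 0.5 FPKM or more, with Benjamini-Hochberg adjustment across them. DESeq2 was not run, since the unit is FPKM. FPKM times gene length gave whole reads (within 0.1) for 100% of the values above 0, and so the depth and the voom alternative. Read numbers cover counting error only. Replicates differed by more than counting noise (chi-square per degree of freedom 5.36 to 6.44). The 129 symbols of all lists were in the table. Of the lists, the platelet markers gave 1 higher and 1 lower of 4 tested (CD226 also occurs on platelets), the CD4 markers 1 and 1 of 2, and the CD8 markers 3 higher of 3. In simulated libraries with the real depths, 67 of 100 genes changed by 0.5 (log2), 99 of 100 changed by 1.5, and 20 of 15663 unchanged genes passed. The simulation gave every gene the same dispersion and changed far fewer genes than passed in the real libraries. Its rates therefore check the code and do not give the power or error rate of the real comparison. Besides the 8 receptors and the list genes, the text names the 3 nearest genes (mean of at least 5 FPKM) to the member with the most positive and to the one with the most negative change. Python 3.11.15, pandas 2.3.3, numpy 2.4.6, scipy 1.17.1 and matplotlib 3.10.9 were used.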

Additional observations from a re-analysis of the deposited data

How the results depend on the processing

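The tests were repeated with pseudocounts of 1 and 0.01 FPKM, without a filter or with a mean of at least 5 FPKM, with median-of-ratios, quantile, TPM and T-cell-centred scalings, without the variance trend, with voom on rebuilt reads, without each library in turn, and with the replicate number as a block. Cd27 kept its direction and passed in all 17 alternatives (log2 fold change 0.22 to 0.81). T-cell centring turned the sign of Tnfrsf4 (-0.13), Tnfrsf18 (-0.46), Cd40lg (-0.064) and Cd226 (-0.067), and left 1 receptor higher and 2 lower. With quantile normalization and with voom, 0 receptors passed as lower. Of the 47 tested pathway genes, 35 passed as higher (74.5%, background 27.5%) and 7 as lower (14.9%, background 29.0%) on the deposited FPKM. After T-cell centring 10 passed as higher (background 5.68%) and 23 as lower (background 61.8%). Over all genes, 653 were called higher and 2034 lower. The called higher were 311 with a pseudocount of 1, 242 at 5 FPKM, 161 after T-cell centring and 1127 with voom. The called lower were 903 at 5 FPKM and 3411 after T-cell centring. Fewer genes were tested at 5 FPKM, and more with voom (18541). The cause of the other shifts was not tested. Leaving out a library left 5 receptors higher and 1 lower each time. Same-numbered libraries did not deviate together (correlations of -0.06 to 0.02 over genes), and with the replicate block 5 receptors passed as higher and 1 as lower, with 651 and 2011 genes called. At 115 to 298 reads a library, Cd40lg is the receptor with the least precise value.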
